A study of Mus musculus with 12 samples.

Results

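The mitochondrial solute carrier family 25 was followed in mouse heart muscle cells (cardiomyocytes, CMs) that lost Srf, the gene for serum response factor. All row symbols made of Slc25a and a number were taken from the gene tables, which gave 44 genes of 23337. Relatives that bear other symbols, such as the uncoupling proteins, are not among them. RNA was measured in 12 samples, 3 in each of 4 groups. Control (CTRL) mice were Srf-flox/+ and kept 1 intact Srf copy after Cre acted, and knockout (KO) mice were Srf-flox/flox. All mice, CTRL included, were of mixed background, carried a fluorescent reporter that Cre switches on, and received AAV9-cTNT-Cre, an adeno-associated virus that expresses Cre from the cardiac troponin T promoter. The virus was given at a low dose, so that only part of the CMs were recombined and the fluorescent ones were sorted for RNA. Neonatal KO and its CTRL were injected at postnatal day 1 and collected at day 14 (P14 KO, P14 CTRL). Adult KO and its CTRL were injected at day 60 and collected at day 90 (P90 KO, P90 CTRL). Pups were injected subcutaneously and adults intraperitoneally. Each model therefore has its own age, injection route and interval between Cre and collection, and these cannot be told apart.

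Members of this family are mostly proteins of the inner mitochondrial membrane that exchange metabolites between the cytosol and the matrix. In the heart the ADP/ATP and phosphate carriers supply ATP synthase and export its product, the carnitine carrier brings in fatty acids, and the aspartate/glutamate and oxoglutarate/malate carriers form the malate-aspartate shuttle for reducing equivalents. A calcium-regulated group has a domain facing the intermembrane space that senses cytosolic calcium. The 44 genes comprised 3 ADP/ATP carriers, 1 phosphate carrier, 1 carnitine carrier, 5 calcium-regulated carriers, 7 amino acid carriers, 4 di- and tricarboxylate carriers, 9 carriers of cofactors and nucleotides, 4 of iron and glutathione, 3 uncoupling-like carriers, 1 outer membrane protein and 6 genes with no settled substrate. Of these, 37 had enough counts to be tested in each comparison. The other 7 (Slc25a2, Slc25a18, Slc25a21, Slc25a31, Slc25a41, Slc25a43 and Slc25a48) reached at most 19 counts in any sample and get no fold change.

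The promoters of 4 members are shown because the results below turn on them: Slc25a23, whose neonatal KO effect was the largest, Slc25a11, whose KO effect also differed between the models, and Slc25a3 and Slc25a4, the most abundant members. Each window runs from 250 bases before to 50 bases after a RefSeq transcription start (GRCm38.p6, the assembly of mm10), in the direction of transcription, and capitals mark a match to the CArG box, the DNA element that serum response factor binds. The windows lie on the minus strand at chr17:57059814-57060113, chr11:70646990-70647289, chr10:91123918-91124217 and chr8:46211013-46211312.
Slc25a23: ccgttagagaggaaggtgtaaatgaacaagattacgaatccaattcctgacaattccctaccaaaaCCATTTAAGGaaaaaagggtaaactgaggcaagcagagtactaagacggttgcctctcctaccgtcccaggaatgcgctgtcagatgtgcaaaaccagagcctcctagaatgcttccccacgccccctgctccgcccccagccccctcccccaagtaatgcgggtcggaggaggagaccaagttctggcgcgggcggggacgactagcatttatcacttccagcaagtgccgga
Slc25a11: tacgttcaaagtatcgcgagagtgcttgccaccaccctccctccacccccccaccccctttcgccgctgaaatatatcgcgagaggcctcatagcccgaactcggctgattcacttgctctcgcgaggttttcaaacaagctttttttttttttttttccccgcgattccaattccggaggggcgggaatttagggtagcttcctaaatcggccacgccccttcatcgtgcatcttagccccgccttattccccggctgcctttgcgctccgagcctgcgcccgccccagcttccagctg
Slc25a3: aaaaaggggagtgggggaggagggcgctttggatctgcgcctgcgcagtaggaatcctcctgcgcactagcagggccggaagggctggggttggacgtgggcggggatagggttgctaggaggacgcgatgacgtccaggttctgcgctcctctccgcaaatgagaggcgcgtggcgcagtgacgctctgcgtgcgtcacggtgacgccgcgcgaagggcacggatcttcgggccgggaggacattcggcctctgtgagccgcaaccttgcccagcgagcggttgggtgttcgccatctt
Slc25a4: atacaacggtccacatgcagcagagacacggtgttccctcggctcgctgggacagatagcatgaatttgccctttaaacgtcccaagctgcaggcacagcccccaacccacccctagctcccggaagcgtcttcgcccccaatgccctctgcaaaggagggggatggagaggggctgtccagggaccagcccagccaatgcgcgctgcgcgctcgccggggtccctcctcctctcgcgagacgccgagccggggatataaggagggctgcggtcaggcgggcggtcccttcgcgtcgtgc
RefSeq windows were matched for 34 of the 44 members. The CArG box, searched on both strands (its reverse complement has the same form), was found in 1 of these members, Slc25a23, beginning 184 bases before the start, and the overlapping window of a second Slc25a23 start holds the same match. Over all 32851 windows of this length 1.63% held a CArG box, and of the 43 windows of the members 2 did, both of Slc25a23. Below, too, members are counted by gene and the background by window. TCAAGGTCA, a site of estrogen-related receptors, was searched likewise on both strands and found in 0 of the 34 members and in 0.423% of all windows. GCATGCGC, part of the site of nuclear respiratory factor 1, was found in 1 member, the untested Slc25a31, and in 2.71% of all windows. These are matches of letters in a short window and describe no binding.

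Total counts were 9740389 to 23103460 per sample, and members took 1.02% to 1.57% of them. Of 5 CM markers (Tnnt2, Myh6, Actc1, Ttn and Ryr2) 0 were at 0 counts, but their summed level, most of it Myh6 and Actc1, was lower in KO. At P14 it was 101116 to 111279 CPM (counts scaled to library size with TMM factors) in CTRL against 59822 to 68139 in KO. At P90 CTRL had 86556 to 100019 CPM and KO 68014 to 68657. By edgeR's quasi-likelihood test (adjusted P value under 0.05) 2 of the 5 markers fell in neonatal KO, Actc1 and Myh6, although Myh6 missed the threshold with replicate numbers as a block (adjusted P value 0.0598). In adult KO 1 of the 5 fell, Actc1, and DESeq2 called Myh6, Ttn and Ryr2 lower too. Tnnt2 did not pass at either age, with 10047 ± 1637 CPM in P14 CTRL and 8876 ± 955 in P14 KO, and 9919 ± 531 in P90 CTRL and 12128 ± 823 in P90 KO (SD, n = 3). The summed levels of 5 endothelial markers (134 to 296 CPM over all samples) and of 5 fibroblast markers (44.6 to 299.5 CPM) overlapped between KO and CTRL at each age, and 0 of the tested markers of endothelial cells, fibroblasts, smooth muscle cells and pericytes, immune cells or erythroid cells passed edgeR's or DESeq2's test in either KO comparison (1 at an unadjusted P value under 0.05 in each). In RNA from pooled sorted cells, fewer cells of a type and less RNA per cell cannot be told apart. The study describes Myh6 as a direct target of Srf and reports Actc1 and Myh6 among the sarcomere genes that fell in neonatal KO. Y-linked counts were present in 1 of 3 samples of P14 CTRL, P14 KO and P90 CTRL and in 0 of 3 of P90 KO. The part of CM marker level and of sex in the results on carriers was not tested beyond the values given.

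Srf itself was 63.9, 57.1 and 49.4 CPM in P14 CTRL and 32.1, 27.5 and 9.74 in P14 KO. It was 71.1, 59.1 and 81.1 CPM in P90 CTRL and 32.8, 28.9 and 28.1 in P90 KO. No KO sample reached the lowest CTRL sample of its age. By edgeR's quasi-likelihood test, neonatal KO had a log2 fold change of −1.30 ± 0.36 (SE, adjusted P value 0.0628) and adult KO one of −1.23 ± 0.13 (adjusted P value 0.00347). With replicate numbers as a block the neonatal value was −1.44 and passed (adjusted P value 0.0220), as it did by DESeq2 (0.00288), and it passed in 6 of 14 fits. All folds below come from edgeR without the block unless stated, and P values were adjusted over all genes tested (Benjamini-Hochberg).

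In neonatal KO, 8 of the 37 tested carriers changed (adjusted P value under 0.05), 6 down and 2 up, in a comparison where 8.59% of all tested genes did (4.6% lower and 3.99% higher). Of the down-regulated carriers described here, Slc25a3 and Slc25a20 import phosphate and carnitine esters, and the others exchange oxoglutarate for malate (Slc25a11) and aspartate for glutamate (Slc25a13), or take part in glutathione transport (Slc25a40). The up-regulated ones were Slc25a23, a calcium-regulated ATP-Mg/phosphate carrier, and Slc25a1, the citrate carrier. The median log2 fold change over the 37 was −0.20, against 0.0011 over all genes, with 26 below and 11 above 0. When any one of the 3 P14 KO samples was left out only Slc25a23 still passed, and over all genes the share that passed fell to 0.873% to 1.58%. Without P14 CTRL replicate 1 the calls of Slc25a1 and Slc25a40 were lost, without replicate 3 those of Slc25a3 and Slc25a20, and without replicate 2 all 8 remained. Without the P14 samples that had Y-linked counts 1 passed, where 0.701% of all genes did. DESeq2 called 12 carriers and 14.6% of all genes, the 4 added being Slc25a4, Slc25a12, Slc25a22 and Slc25a46.

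**Figure D1:**
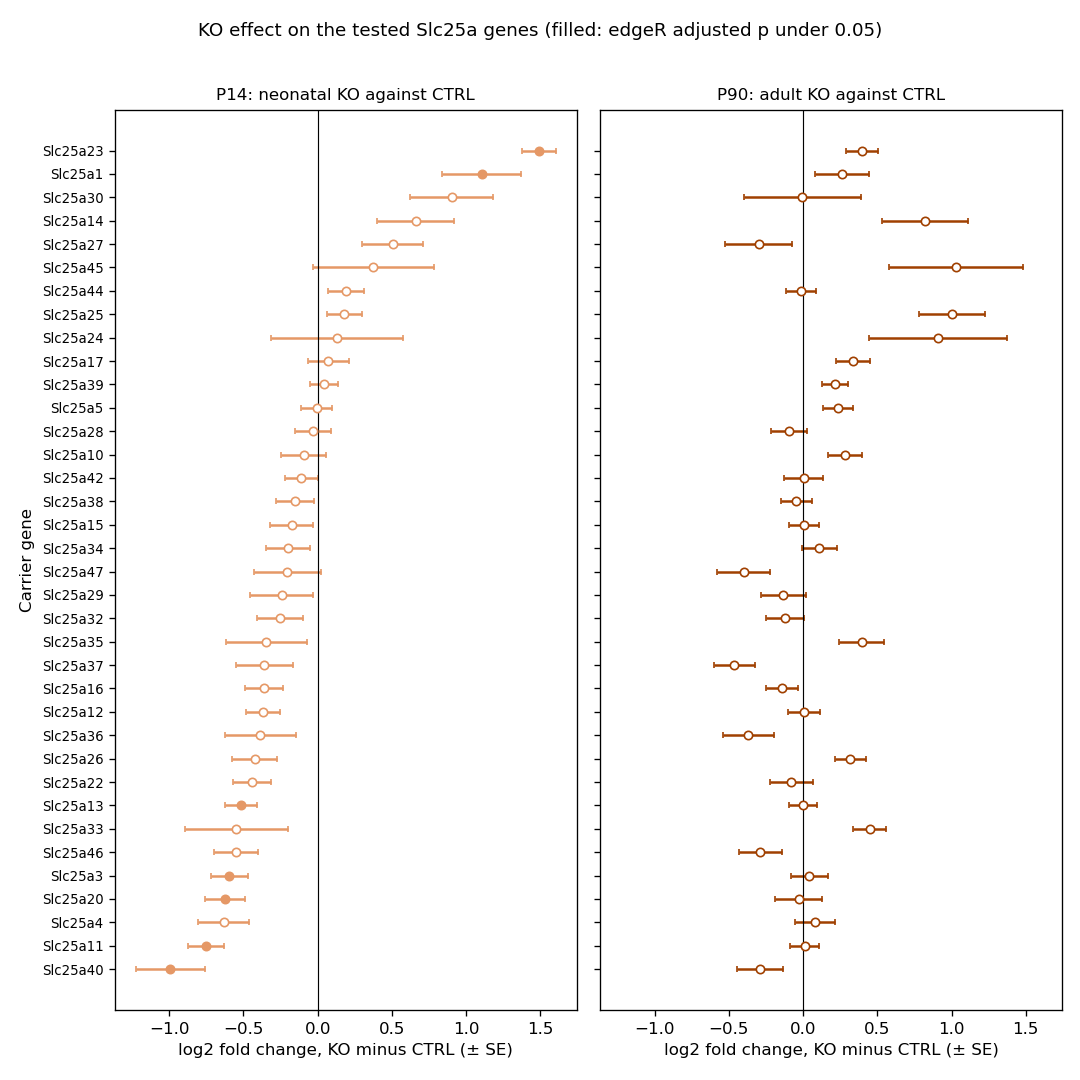
Log2 fold change of KO over CTRL (x axis, ± SE) for 36 of the 37 tested Slc25a genes (y axis, ordered by the neonatal value) at P14 (left) and P90 (right), with filled points for adjusted P values under 0.05. In neonatal KO 7 points are filled, from −0.99 for Slc25a40 to 1.49 for Slc25a23, and in adult KO 0 are.

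ADP/ATP carriers exchange matrix ATP for cytosolic ADP. Slc25a4 (chr8:46207341-46211009, mm10, minus strand), the isoform of heart and skeletal muscle, was the most abundant member in every group. It took 50.3% to 60.3% of the counts of the members, and its mean level per exon length was 7311 ± 1130 RPKM (SD, n = 3) in P14 CTRL. Slc25a4 measured 8015, 9369 and 6872 CPM in P14 CTRL and 5678, 5686 and 4313 CPM in P14 KO. The KO samples were all below the CTRL samples. The log2 fold change was −0.63 ± 0.17 with an adjusted P value of 0.0552, so Slc25a4 missed the threshold. Blocked by replicate number, the test gave 0.0313 for Slc25a4 and so passed. It passed with the block for the outer membrane protein Slc25a46 too (0.0571 without and 0.0422 with it), which brought the count of carriers to 10, where 12.2% of all genes passed. Over all 14 fits the adjusted P values ranged from 0.00324 to 0.171 for Slc25a4 and from 0.0122 to 0.203 for Slc25a46. At P90 Slc25a4 was 9016, 6977 and 7633 CPM in CTRL and 9748, 8072 and 7072 in KO, and the groups overlapped (log2 fold change 0.08 ± 0.13, adjusted P value 0.803).

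Slc25a5 (chrX:36795652-36798806, mm10, plus strand), the ADP/ATP carrier of most other tissues, was 654, 709 and 708 CPM in P14 CTRL and 663, 682 and 723 in P14 KO. The groups overlapped, and the log2 fold change was −0.01 ± 0.10 with an adjusted P value of 0.982. At P90 it was 579, 567 and 640 CPM in CTRL and 767, 651 and 676 in KO. All P90 KO samples were above all P90 CTRL samples, but the log2 fold change of 0.23 ± 0.10 had an adjusted P value of 0.278. The annotation holds a pseudogene of Slc25a5 and the handling of multi-mapping reads in the counting is not stated, so its counts are uncertain. Slc25a31, the isoform of the testis, was among the genes not tested.

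The log2 ratio of Slc25a4 to Slc25a5 (in RPKM) was 3.78, 3.89 and 3.44 in P14 CTRL and 3.26, 3.22 and 2.74 in P14 KO. The groups did not overlap and differed by −0.63. An exact two-sided permutation test gave p = 0.1, the smallest that 3 samples against 3 allow. Adjusted over 9 tests, of 3 ratios in 3 comparisons (P90 CTRL against P14 CTRL included), it was 0.45. At P90 the ratio of Slc25a4 to Slc25a5 was 4.12, 3.78 and 3.74 in CTRL and 3.83, 3.79 and 3.55 in KO, with overlap (exact permutation p = 0.6). The ratio of the aspartate/glutamate carriers Slc25a12 and Slc25a13 overlapped between KO and CTRL at both ages (exact permutation p = 0.2 and 0.9). The ratio of the iron carriers Slc25a28 and Slc25a37 overlapped at P14 (exact permutation p = 0.2). It was higher in every P90 KO sample than in any P90 CTRL sample, by 0.38 (exact permutation p = 0.1, adjusted 0.45). Each of the 3 ratios overlapped between P14 CTRL and P90 CTRL.

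**Figure D2:**
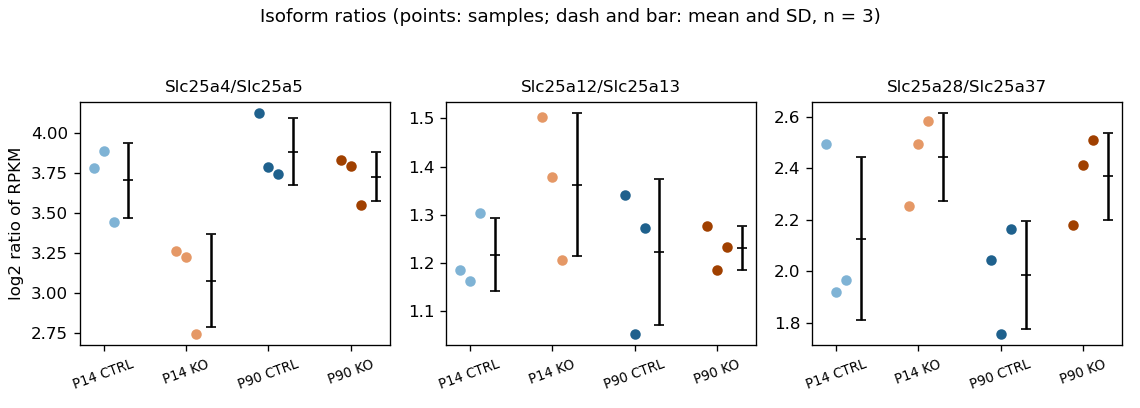
Log2 ratio of RPKM (y axis) for 3 carrier pairs in each sample of the 4 groups (x axis), with mean and SD to the right of the points. Slc25a4/Slc25a5 in P14 KO (2.74 to 3.26) lies below P14 CTRL (3.44 to 3.89), and Slc25a28/Slc25a37 in P90 KO lies above P90 CTRL.

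Slc25a3 (chr10:91116578-91123963, mm10, minus strand), which imports the phosphate used by ATP synthase, was next in level with 1327 ± 153 RPKM in P14 CTRL. It measured 1773, 2236 and 2009 CPM in P14 CTRL and 1320, 1417 and 1260 in P14 KO, with no overlap. The log2 fold change was −0.59 ± 0.13 (adjusted P value 0.0276), so that KO held 66.2% of CTRL. In adult KO it was 2441, 1980 and 1718 CPM against 2143, 1925 and 1917 in CTRL. The adult groups overlapped (log2 fold change 0.04 ± 0.13, adjusted P value 0.901), and the difference between the neonatal and adult effects, −0.63 ± 0.18, had an adjusted P value of 0.098.

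Slc25a20 (chr9:108662098-108684641, mm10, plus strand) exchanges acylcarnitine for free carnitine. Its levels were 288, 378 and 322 CPM in P14 CTRL and 235, 212 and 197 in P14 KO, all KO samples lying lower. The log2 fold change was −0.62 ± 0.13 (adjusted P value 0.0286). At P90 Slc25a20 was 409, 345 and 275 CPM in CTRL and 393, 341 and 270 in KO, with overlap (log2 fold change −0.03 ± 0.16, adjusted P value 0.947). Among 5 genes of the carnitine shuttle outside the family (Cpt1a, Cpt1b, Cpt2, Crat and Slc22a5), 1 was down-regulated in neonatal KO, where 4.6% of all tested genes were. This was Cpt2, the inner membrane carnitine palmitoyltransferase (−0.58 ± 0.13, adjusted P value 0.0343). DESeq2 called 3 of the 5, Crat and Slc22a5 as well as Cpt2, and 14.6% of all genes.

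**Figure D3:**
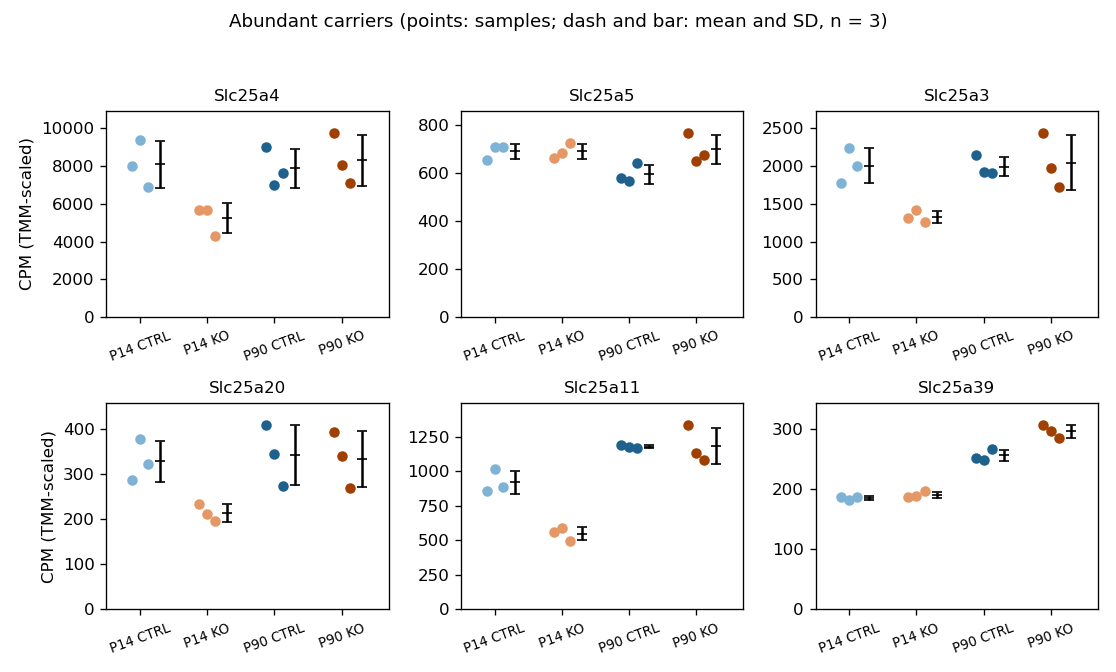
CPM (y axis) of 6 abundant carriers in each sample of the 4 groups (x axis), with mean and SD to the right of the points. The P14 KO samples lie below P14 CTRL for Slc25a4, Slc25a3, Slc25a20 and Slc25a11, and overlap with it for Slc25a5, whereas Slc25a39 in P14 KO spans 187.2 to 196.6 CPM just above P14 CTRL (182 to 187.0).

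The 5 calcium-regulated carriers went in different directions in neonatal KO: 1 rose, 1 fell and 3 did not pass. Of all tested genes 3.99% rose and 4.6% fell. DESeq2 called 3 of the 5, and 14.6% of all genes. Slc25a23 (chr17:57043711-57059863, mm10, minus strand), which exchanges ATP-Mg for phosphate and so adjusts the matrix adenine nucleotide pool, was 51.5, 50.1 and 47.5 CPM in P14 CTRL and 122.9, 146.8 and 150.0 in P14 KO. Every KO sample was far above any CTRL sample. The rise was 2.81-fold (log2 fold change 1.49 ± 0.11, adjusted P value 0.00170), and it passed in all 14 fits that were run for this comparison, with log2 fold changes of 1.45 to 1.58. At P90 Slc25a23 was 57.9, 54.4 and 46.2 CPM in CTRL and 71.6, 70.8 and 65.7 in KO. The KO samples were again above the CTRL samples, but the log2 fold change of 0.40 ± 0.11 had an adjusted P value of 0.124 and passed in 4 of 14 fits. The neonatal effect exceeded the adult one by 1.10 ± 0.15 on the log2 scale (adjusted P value 0.0127). Without P90 KO replicate 2 the adjusted P value of this difference was 0.0520, the highest of 19 fits, of which the other 18 passed.

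Slc25a13 (chr6:6041218-6217173, mm10, minus strand) and Slc25a12 (chr2:71274295-71367554, mm10, minus strand) exchange aspartate for glutamate in the malate-aspartate shuttle. Slc25a13 was 159, 191 and 170 CPM in P14 CTRL and 118, 118 and 129 in P14 KO, and fell (−0.52 ± 0.11, adjusted P value 0.0277). Slc25a12, the more abundant of the pair with 129 ± 11.4 RPKM in P14 CTRL against 55.5 ± 5.13 for Slc25a13, was 339, 400 and 393 CPM in P14 CTRL and 312, 287 and 279 in P14 KO. Its samples did not overlap either, and its log2 fold change was −0.37 ± 0.11 with an adjusted P value of 0.0831 (0.0218 by DESeq2). In adult KO both were close to CTRL (Slc25a12 0.0060 ± 0.11, adjusted P value 0.987, and Slc25a13 −0.00018 ± 0.096, adjusted P value 1).

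Slc25a25 (chr2:32414487-32451470, mm10, minus strand), another ATP-Mg/phosphate carrier, was the calcium-regulated member with the largest adult difference. It was 9.23, 7.28 and 9.57 CPM in P90 CTRL and 11.6, 22.5 and 18.2 in P90 KO. The KO samples were all higher but spread widely. The log2 fold change of 1.00 ± 0.22 missed the threshold (adjusted P value 0.0834). It passed in 5 of 14 fits, DESeq2 (0.00233) and the fit without P90 KO replicate 1 (0.0215) among them, and the adjusted P value ranged from 1.03e-06 to 0.314. In P14 KO Slc25a25 was 21.5, 21.8 and 20.2 CPM against 17.4, 18.9 and 19.6 in CTRL (log2 fold change 0.18 ± 0.12, adjusted P value 0.392). Its exons overlap those of Naif1 on the opposite strand and the strand setting of the counting is not stated, so reads of the 2 genes cannot be told apart. Slc25a24 stayed at or under 2.21 CPM in every sample and did not pass in either KO comparison.

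**Figure D4:**
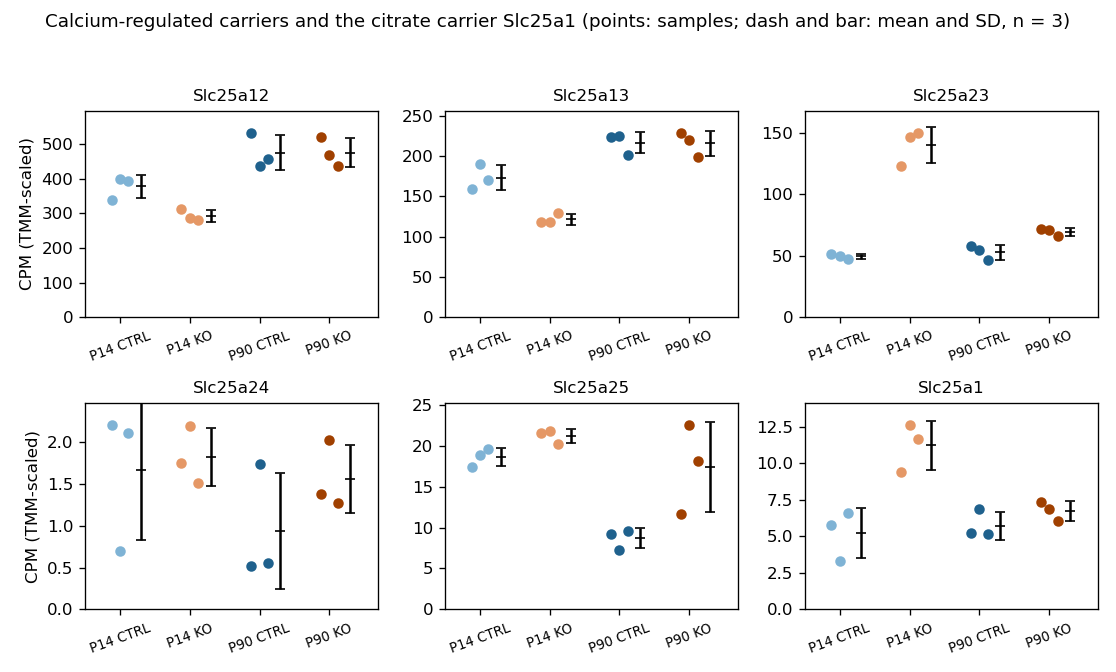
CPM (y axis) of the 5 calcium-regulated carriers and the citrate carrier Slc25a1 in each sample of the 4 groups (x axis), with mean and SD to the right of the points. Slc25a23 in P14 KO spans 122.9 to 150.0 CPM, above all other samples, and Slc25a25 in P90 KO spans 11.6 to 22.5 CPM, above P90 CTRL.

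Among di- and tricarboxylate carriers, Slc25a11 (chr11:70644027-70647039, mm10, minus strand), which exchanges oxoglutarate for malate, was 861, 1019 and 885 CPM in P14 CTRL and 558, 592 and 498 in P14 KO. The groups did not overlap, and the log2 fold change was −0.75 ± 0.12 (adjusted P value 0.0146), or 59.4% of CTRL. In adult CMs Slc25a11 was 1191, 1179 and 1173 CPM in CTRL and 1336, 1135 and 1085 in KO, with overlap (0.01 ± 0.10, adjusted P value 0.973). The difference between the neonatal and adult effects was −0.75 ± 0.15 (adjusted P value 0.0338). It passed in 10 of 19 fits, with adjusted P values of 0.000111 to 0.0927. It was lost without P14 CTRL replicate 2, any P14 KO sample, any P90 CTRL sample, or P90 KO replicate 1 or 2.

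Slc25a1 (chr16:17925211-17928219, mm10, minus strand), which exports citrate for cytosolic lipid synthesis, was low, at 5.77, 3.30 and 6.61 CPM in P14 CTRL, and higher at 9.41, 12.6 and 11.7 CPM in P14 KO. The groups did not overlap, and the log2 fold change was 1.10 ± 0.27 (adjusted P value 0.0397). At P90 the groups overlapped, with 5.21, 6.84 and 5.14 CPM in CTRL and 7.35, 6.87 and 6.03 in KO (0.26 ± 0.18, adjusted P value 0.516). Slc25a10, the dicarboxylate carrier, overlapped between P14 CTRL and P14 KO (−0.09 ± 0.15, adjusted P value 0.758).

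Of the 7 amino acid carriers 5 were tested, and 0 passed edgeR's test in either KO comparison. At an unadjusted P value under 0.05 there was 1 in neonatal KO (25.6% of all genes) and 0 in adult KO, and DESeq2 likewise called 1 and 0. Their neonatal log2 fold changes ran from −0.44 to 0.19 with a median of −0.18. The lowest belonged to Slc25a22, a glutamate carrier, with 133, 153 and 135 CPM in P14 CTRL and 117, 103 and 90.7 in P14 KO. These groups did not overlap, and the adjusted P value was 0.0664 by edgeR and 0.0207 by DESeq2. Slc25a15 (ornithine) had −0.18 ± 0.14, Slc25a29 (basic amino acids) −0.24 ± 0.21, Slc25a38 (glycine, for heme synthesis) −0.15 ± 0.13 and Slc25a44 (branched-chain amino acids) 0.19 ± 0.12. In adult KO the 5 ran from −0.13 to 0.0048.

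Slc25a40, a relative of the glutathione carrier Slc25a39, fell in neonatal KO. It was 10.98, 17.6 and 10.3 CPM in P14 CTRL and 6.75, 6.17 and 6.72 in P14 KO (−0.99 ± 0.23, adjusted P value 0.0362). Slc25a39 itself, which was more abundant, had 0.04 ± 0.09 (adjusted P value 0.838). Of the 8 tested carriers of cofactors and nucleotides 7 had values below 0 in neonatal KO, as did 6254 of all 12546 tested genes. This counts signs only, and most of the 8 values missed the threshold. The 3 uncoupling-like carriers had log2 fold changes of 0.50 to 0.90 with adjusted P values of 0.0849 to 0.170.

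In adult KO, 0 of the 37 tested carriers passed edgeR's test, where 0.39% of all tested genes did (0.152% lower and 0.237% higher). At an unadjusted P value under 0.05 there were 13, a larger share than the 16.2% of all genes. DESeq2 called 3 (Slc25a23, Slc25a25 and Slc25a33), against 2.9% of all genes. The median log2 fold change was 0.0060, against 0.0057 over all genes, with 16 below and 21 above 0. All log2 fold changes lay between −0.46 (the iron carrier Slc25a37) and 1.03 (Slc25a45, which stayed under 2 CPM). The 8 carriers that changed in neonatal KO had adult values between −0.29 and 0.40.

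The difference between the neonatal and adult effects passed for 2 of the 37 carriers, Slc25a23 and Slc25a11, in a fit of all 12 samples in which 1.78% of genes passed (0.958% lower and 0.818% higher). With replicate numbers as a block 6 passed, the other 4 being Slc25a3, Slc25a4, Slc25a13 and Slc25a26 (S-adenosylmethionine), all with a lower value in the neonatal model. The block also raised the share of all genes that passed, to 5.35%. The median difference was −0.25, against −0.0051 over all genes. For Slc25a1, Slc25a20 and Slc25a40 the difference passed neither without nor with the block.

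Partner genes of the carriers were counted from 5 lists of 36 genes, of which 33 were tested. The lists also hold relatives of the carriers that the symbol rule left out, namely Ucp1, Ucp2, Ucp3, Mtch1 and Mtch2. In neonatal KO 14 changed, 13 down and 1 up, against 8.59% of all genes, and the median of the 33 was −0.43. The block added Mtch1, a carrier homologue of the outer membrane, whose value without it was 0.46 ± 0.13 (adjusted P value 0.0617). In adult KO 0 passed in edgeR's test and 0 in that of DESeq2. The 3 partner genes at an unadjusted P value under 0.05 in adult KO were a smaller share than the 16.2% of all genes. Like the count of carriers, the neonatal count rested on all KO samples, and it was 0 when any P14 KO sample was left out and 7 to 10 when a P14 CTRL sample was.

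All 4 enzymes of the malate-aspartate shuttle had neonatal values below 0 and 3 passed: Got1 (−0.93 ± 0.17, adjusted P value 0.0197), Got2 (−0.57 ± 0.12, 0.0249) and Mdh2 (−0.60 ± 0.13, 0.0268). With the carriers Slc25a11 and Slc25a13, 5 of the 7 genes of this shuttle were down-regulated in neonatal KO, where 4.6% of all tested genes were. The others were Mdh1 and Slc25a12. All 5 calls were lost when any one P14 KO sample was left out. For Got2 (−0.69 ± 0.13, 0.0269) and Mdh2 (−0.68 ± 0.15, 0.0437) the difference between the models also passed. In the high-energy phosphate list 3 of 4 tested genes fell, namely the mitochondrial creatine kinase Ckmt2 (−0.56 ± 0.14, 0.0453) and the adenylate kinases Ak3 (−0.42 ± 0.09, 0.0294) and Ak4 (−0.66 ± 0.13, 0.0245).

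Of the 14 other membrane transporters tested, 6 fell and 1 rose in neonatal KO, where 4.6% of all tested genes fell and 3.99% rose. Both subunits of the mitochondrial pyruvate carrier, listed in the tables as Brp44l (Mpc1) and Brp44 (Mpc2), fell (−0.68 ± 0.17, adjusted P value 0.0495, and −0.96 ± 0.19, 0.0225). The outer membrane channels Vdac2 (−0.60 ± 0.10, 0.0164) and Vdac3 (−0.50 ± 0.13, 0.0474), the carrier homologue Mtch2 (−0.43 ± 0.11, 0.0474) and the uncoupling protein Ucp3 (−0.95 ± 0.19, 0.0247) fell as well. Its relative Ucp2 rose, from 603 ± 192 to 1116 ± 131 CPM (SD, n = 3; 0.89 ± 0.22, 0.0442). Of 6 tested genes of mitochondrial calcium uptake 0 passed edgeR's test (2 at an unadjusted P value under 0.05, 1 by DESeq2), with values from −0.62 to 0.25. Over all genes 25.6% had an unadjusted P value under 0.05 in edgeR's test and DESeq2 called 14.6%.

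Between P14 and P90 in CTRL CMs, 13 of the 37 tested carriers changed, 11 up and 2 down, where 29.3% of all tested genes did (14.9% lower and 14.5% higher). The share of carriers that passed in either direction, 35.1%, was close to this background. Split by direction, a larger share of carriers rose and a smaller share fell than among all genes. This comparison shares its samples with both KO comparisons, and stage cannot be told apart from any difference in handling between the 2 tables. The largest rise was in Slc25a29, a carrier of basic amino acids, from 8.96, 7.20 and 8.95 CPM at P14 to 28.9, 20.4 and 29.4 at P90 (1.66 ± 0.19, adjusted P value 0.000497). Slc25a38, the glycine carrier, rose from 18.2, 18.0 and 20.4 CPM to 43.0, 40.1 and 37.6 (1.10 ± 0.12, 0.000497). For both, P90 KO stayed with P90 CTRL (21.8 to 27.3 and 36.5 to 41.4 CPM).

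The other amino acid carrier that rose was Slc25a15 (0.43 ± 0.14, adjusted P value 0.0455). Of the carriers of cofactors and nucleotides 4 rose: Slc25a36 (pyrimidine nucleotides, 0.80 ± 0.26, 0.0446), Slc25a26 (S-adenosylmethionine, 0.66 ± 0.15, 0.0113), Slc25a32 (folate and FAD, 0.61 ± 0.15, 0.0166) and Slc25a42 (coenzyme A, 0.47 ± 0.15, 0.0384). Slc25a34 (0.60 ± 0.14, 0.0144), Slc25a46 (0.55 ± 0.17, 0.0378, with overlapping groups), Slc25a39 (0.47 ± 0.10, 0.00814) and Slc25a11 (0.36 ± 0.10, 0.0310) rose too. Slc25a26 shares exon sequence with Lrig1 on the opposite strand.

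The 2 carriers that fell were Slc25a25 and Slc25a17, a carrier of peroxisomal cofactors. Slc25a25 went from the 17.4 to 19.6 CPM given above to 7.28 to 9.57 (−1.09 ± 0.16, adjusted P value 0.00168), which held in all 13 fits. Slc25a17 was 27.1, 36.2 and 34.2 CPM at P14 and 22.4, 21.7 and 19.7 at P90 (−0.61 ± 0.14, 0.0135). The most abundant carriers did not pass: Slc25a4 had −0.04 ± 0.14 (0.874), Slc25a3 −0.0052 ± 0.12 (0.979), Slc25a5 −0.21 ± 0.10 (0.160) and Slc25a20 0.06 ± 0.16 (0.802). The count of 13 was 8 without P14 CTRL replicate 1 or P90 CTRL replicate 1, 7 without P90 CTRL replicate 2 or 3, 9 without P14 CTRL replicate 3 and 17 without P14 CTRL replicate 2.

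**Figure D5:**
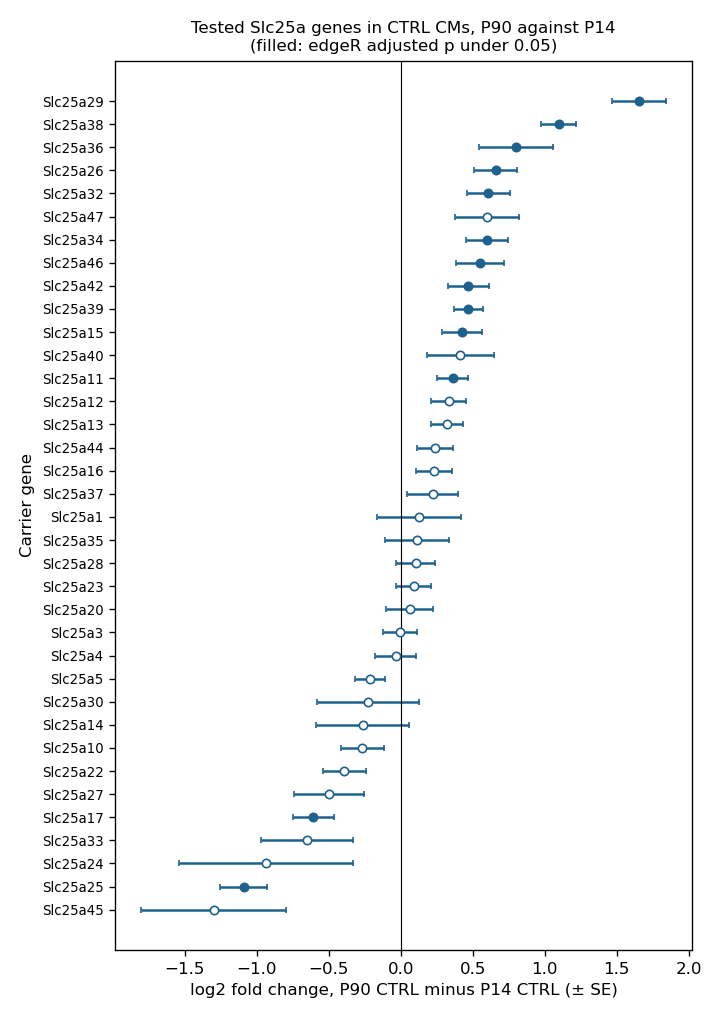
Log2 fold change from P14 CTRL to P90 CTRL (x axis, ± SE) for 36 of the 37 tested Slc25a genes (y axis, ordered by value), with filled points for adjusted P values under 0.05. Slc25a29 (1.66) and Slc25a38 (1.10) lie farthest up among the 11 filled points above 0, and Slc25a25 (−1.09) and Slc25a17 (−0.61) are the 2 filled points below it.

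The order of levels per exon length was similar in all groups. In P14 CTRL Slc25a4 (7311 RPKM) was followed by Slc25a3 (1327 ± 153), Slc25a5 (558 ± 25.6), Slc25a11 (495 ± 45.9), Slc25a20 (185 ± 25.7), Slc25a12 (129 ± 11.4) and Slc25a39 (111 ± 1.72, SD, n = 3 for each). Slc25a5 and Slc25a11 were neighbours whose samples overlapped in P14 CTRL (528 to 573 and 463 to 548 RPKM). In P14 KO Slc25a5 (557 ± 24.8) stood above Slc25a11 (295 ± 25.5) with no overlap, and in P90 CTRL Slc25a11 (635 ± 4.87) stood above Slc25a5 (481 ± 31.7) with no overlap. Slc25a23 ranked among the first 10 members in P14 KO, with 41.6 ± 4.40 RPKM against 14.8 ± 0.594 in P14 CTRL.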

How the data were processed

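CMs were sorted and single-end poly(A) RNA-seq libraries were made from amplified cDNA. According to its methods, the authors aligned reads to mm10 with STAR (2.5.3a in the submitters' processing notes, which also list Subread 1.5.2 and CASAVA 1.8) and deposited raw featureCounts counts per gene in 2 tables, one per stage. Strand and multi-mapping settings are not given in the sources used here.

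Tests used edgeR 4.0.16 in R 4.3.3 (filterByExpr, TMM, quasi-likelihood F-test, Benjamini-Hochberg adjustment, threshold 0.05) on the 6 samples of each stage, on the 6 CTRL samples, and on all 12 for the difference between models. SE was derived from the fold change and F. DESeq2 1.42.0, the study's tool, was an alternative. RPKM is CPM per kilobase of exon. A floor of 3 counts is 0.138 to 0.326 CPM, and this and all counts cover counting error only, since amplified reads carry no molecular identifiers. Groups and replicate numbers came from sample titles. The study counts its replicates as hearts, which the labels do not state. Same-numbered P14 samples deviated together (r = 0.134 to 0.457 across genes, every pair over 0.1, against −0.287 to 0.154 for different numbers, which overlap except for replicate 3). The main tests did not treat them as paired. Blocked values are given beside neonatal results whose call they change. The tests were also run on data simulated from the spread fitted here, with changes larger than those of most carriers. This gives no rate of recovery for changes as small as most seen in the carriers. Alternatives were RLE scaling, no filter, a replicate block, a gene-length offset, a fit of all 12 samples and leaving out each library. Figures used matplotlib 3.10.9.

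The members, gene lists and tests were chosen with earlier results of these data known. Named are Srf, all members of the 5 compared classes, other members past the threshold in a KO comparison, the 10 with the largest CTRL change and the 10 highest by RPKM, and partner genes past the threshold. Slc25a10, Slc25a28, Slc25a33, Slc25a37, Slc25a45, Mtch1 and the carriers called by a block or DESeq2 alone were named after their values were seen. 1 carrier is counted with the family but not reported here. Symbols of list genes were matched to older names through RefSeq synonyms.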

Additional observations from a re-analysis of the deposited data

Results flagged for a closer look

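The KO effect differed between the neonatal and the adult model for 2 carriers in a direct test of the difference (edgeR, all 12 samples). Slc25a23 rose more in neonatal KO, by 1.10 on the log2 scale (adjusted P value 0.0127), with P14 KO above P14 CTRL and P90 KO above P90 CTRL in all samples. Slc25a11 differed by −0.75 (adjusted P value 0.0338), with all P14 KO samples below P14 CTRL and overlapping groups at P90. The difference for Slc25a11 passed in 10 of 19 fits, and that for Slc25a23 in 18 of 19.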

How the results depend on the processing

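The count of carriers past the threshold in neonatal KO (8) was 13 in a fit of all 12 samples (16.3% of all genes), 12 with DESeq2 (14.6%, against 8.59%), and 1 to 8 with a library left out. The adult count (0) was 3 with DESeq2, 3 with no filter on low counts (3.60% of all genes), 3 with the replicate block (5.55%), 2 with the gene-length offset and block (1.82%), and 0 to 1 with a library left out. Carriers whose KO effect differed between models (2) numbered 7 with DESeq2 (7.13% of all genes), 6 with the replicate block and 0 to 3 with a library left out. Carriers that differed between CTRL ages (13) numbered 7 to 17 with a library left out. Partner genes (14 neonatal, 0 adult, 4 for the difference, 10 for CTRL age) numbered 0 to 10, 0, 0 to 7 and 7 to 12 with a library left out. The adult count of partners was 1 with no filter and 1 with the replicate block, and that of the difference was 13 with DESeq2 and 8 with the block. The median fold change of carriers over CTRL age (0.13) was 0.16 with the block, 0.17 with the gene-length offset and block, and 0.15 to 0.21 with a library left out, and the neonatal median (−0.20) was −0.23 to −0.16. Same-numbered samples did not all deviate together at P90 (r = 0.0315 to 0.296 across genes) or between CTRL ages (−0.0635 to 0.00833). The block added Slc25a23, Slc25a25 and Slc25a33 at P90, removed Slc25a11 and Slc25a42 from the CTRL age calls, and changed no other carrier call than these and those given above. RLE scaling kept all carrier calls and added Slc25a26 for the difference. The cause of these changes was not tested. Slc25a5 in neonatal KO was 0.11 with the gene-length offset and 0.11 with offset and block, and the difference between models for Slc25a36 ranged from −0.19 to 0.34 with a library left out. Of 2127 fold changes under these alternatives 96 changed sign, all of values that missed the threshold in both fits, the largest of them 0.23 in size. Those within 1 SE of 0 were not treated as reversals.

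Chosen after seeing the data, a fit of only the samples without Y-linked counts gave 1 carrier in neonatal KO (Slc25a23, 1.46, adjusted P value 0.0324), 0 in adult KO, 1 for the difference and 3 for CTRL age, where 0.701%, 0.132%, 0.116% and 7.49% of all genes passed. This alternative leaves fewer samples, as leaving out a library does. Depth limits the 7 untested carriers, which were at or under 19 counts.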
